A study of Mus musculus with 4 samples.

Results

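Genes of glycolysis and of the hypoxia response were followed after depletion of Tex10 in mouse embryonic stem (ES) cells of the line CCE (strain 129SV). The group holds 36 genes, chosen by symbol: 18 glycolytic enzymes, 6 regulators and transporters of glycolysis, 5 subunits and prolyl hydroxylases of the hypoxia-inducible factor (HIF), and 7 other HIF targets. Of these, 35 had a row in the deposited tables, out of 22739 named genes in all. The name Pkm2 had no row, and the pyruvate kinase gene was listed as Pkm. At a mean of at least 1 FPKM (fragments per kilobase of transcript, scaled to the mapped fragments) over the 4 libraries, 34 of the 35 entered the test among 11883 genes. Car9, a carbonic anhydrase gene, did not, at 0.0572 and 0.101 FPKM in the shTex10 libraries and 0.124 and 0.148 FPKM in the shLuci libraries.

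Poly(A) RNA was sequenced in 2 libraries per group. In the shTex10 group the cells received a short hairpin RNA against Tex10. In the shLuci group they received one against luciferase, an enzyme that mouse cells do not make. All cells grew on gelatin in serum with leukemia inhibitory factor. How many hairpins were used, how they were delivered and how long the cells carried them is not stated, and with a single hairpin label per group an off-target effect cannot be told apart from loss of Tex10.

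Glycolysis turns glucose into pyruvate in the cytosol, and lactate dehydrogenase then turns pyruvate into lactate, which leaves the cell through monocarboxylate transporters. Pluripotent stem cells are known for high glycolysis even where oxygen is plentiful. HIF is a pair of an alpha subunit (HIF1A or EPAS1) and ARNT. In normal oxygen the EGLN prolyl hydroxylases mark the alpha subunit for destruction, and in low oxygen HIF accumulates and induces most glycolytic genes as well as genes for blood vessel growth, collagen hydroxylation and oxidative protein folding. Much of this control acts on the HIF protein, which RNA levels do not show.

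HIF binds a short core sequence, ACGTG or GCGTG. The promoters of 4 genes that the results below turn on are shown with these cores in capitals, read on either strand, so that a core of the opposite strand appears as CACGT or CACGC: Ldha and Tpi1, which were lower in shTex10, and P4ha2 and Pfkfb4, which were higher. Ldha has more than 1 RefSeq promoter, and the first is printed. Each line gives the 250 bases before the RefSeq transcript start, 5′ to 3′ along the gene, on GRCm38.p6: chr7:46845554-46845803 (plus strand) for Ldha, chr6:124814159-124814408 (minus strand) for Tpi1, chr11:54100674-54100923 (plus strand) for P4ha2 and chr9:108991652-108991901 (plus strand) for Pfkfb4. Where CACGTG occurs, which also is the core of the E-box bound by MYC-type factors, it holds ACGTG on both strands and was counted once.
Ldha: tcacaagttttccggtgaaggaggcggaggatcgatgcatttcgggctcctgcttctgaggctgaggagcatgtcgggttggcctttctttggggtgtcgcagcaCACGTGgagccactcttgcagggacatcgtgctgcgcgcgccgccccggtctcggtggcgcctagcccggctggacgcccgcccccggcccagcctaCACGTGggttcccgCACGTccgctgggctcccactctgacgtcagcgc
Tpi1: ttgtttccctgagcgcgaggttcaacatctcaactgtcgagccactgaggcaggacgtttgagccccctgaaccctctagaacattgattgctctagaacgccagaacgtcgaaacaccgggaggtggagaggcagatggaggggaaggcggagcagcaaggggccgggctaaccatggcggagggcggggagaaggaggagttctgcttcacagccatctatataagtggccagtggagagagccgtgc
P4ha2: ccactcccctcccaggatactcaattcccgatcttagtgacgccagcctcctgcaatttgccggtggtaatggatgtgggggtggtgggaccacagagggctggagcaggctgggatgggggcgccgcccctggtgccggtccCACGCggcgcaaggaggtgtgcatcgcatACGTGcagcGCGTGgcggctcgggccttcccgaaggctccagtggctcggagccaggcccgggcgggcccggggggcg
Pfkfb4: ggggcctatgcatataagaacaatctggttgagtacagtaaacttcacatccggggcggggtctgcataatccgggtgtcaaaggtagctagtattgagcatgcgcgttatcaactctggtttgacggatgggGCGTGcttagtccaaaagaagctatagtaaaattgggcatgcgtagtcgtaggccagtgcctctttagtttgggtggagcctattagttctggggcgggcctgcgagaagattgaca
The Ldha window holds 3 such cores, of which 2 lie in CACGTG, the P4ha2 window holds 3, the Pfkfb4 window holds 1 and the Tpi1 window holds 0. In windows of 300 bases (250 before to 50 after the start), 31 of the 34 genes with a RefSeq promoter held a core in at least 1 of their promoters, or 91.2%, against 46.7% of 27025 genes with a promoter. Those genes include many not expressed in these cells, and the difference was not tested. Among the 11883 genes tested in these cells, 9294 matched a promoter, of which 68.5% held a core. This share leaves out the tested genes without a match, and the difference from it was not tested either. CACGTG was in a promoter of 5 of the 34 genes, or 14.7%, against 8.09% of all genes with a promoter and 12.1% of the tested genes with one. Among the genes called lower in shTex10, 21 of 23 held a core, and among those called higher 2 of 3. Of the genes not past the test that had a promoter, 6 of 6 did. A core in a window is a match of letters and no measure of binding.

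The targeted gene checks the labels. Tex10 measured 11.6 and 13.4 FPKM in the shTex10 libraries, against 77.3 and 82.1 FPKM in the shLuci libraries, so its groups stood far apart (log2 change -2.58, SE 0.10). Each log2 change is the shTex10 mean of log2(FPKM + 1) less the shLuci mean, with n = 2 per group, and the added 1 shrinks the change of low genes. A gene is called where limma gave a Benjamini-Hochberg adjusted p under 0.05. The 8 ES cell markers were at 73.9 FPKM or more in each library, and 6 of them were called lower. They summed to 4244 and 4604 FPKM in shTex10 and 5230 and 5649 FPKM in shLuci. Markers of trophoblast moved with the knockdown: 6 of 6 tested were called higher, and the 8 listed summed to 583 and 578 FPKM in shTex10 and 258 and 268 FPKM in shLuci, with most of it from Krt8 and Krt18 and with Elf5 at 0.0800 FPKM or less. The 7 primitive endoderm markers summed to 5.97 and 6.29 FPKM in shTex10 and 3.89 and 3.29 FPKM in shLuci, and 1 of 1 tested was called higher. The 8 fibroblast markers summed to 43.4 and 32.1 FPKM in shTex10 and 37.4 and 28.9 FPKM in shLuci, with Dcn, Lum, Pdgfrb and Col3a1 under 1 FPKM throughout, and 1 of 4 tested was called lower. Beside these counts of markers, 31.8% of all genes tested were called lower and 19.8% higher. The part of these markers in the results was not tested, and in bulk RNA fewer cells of a type and less RNA per cell cannot be told apart. Named rows summed to 525878 and 537692 FPKM in shTex10 and 613642 and 632067 FPKM in shLuci, so scale differs between the groups. Unnamed rows held 70.8% and 68.8% of all FPKM in shTex10 and 56.3% and 71.6% in shLuci. The series calls the samples biological replicates without saying how they were grown apart, and the p-values reflect no more than the spread among the 4 libraries.

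Transcripts of the glycolytic pathway were lower in shTex10, while the glucose transporters and the HIF subunits among the members did not pass the test. Of the 34 genes tested, 23 were called lower and 3 higher, and 8 did not pass. Over all 11883 genes, 31.8% were called lower and 19.8% higher. The members' median log2 change was -0.67, beside -0.14 over all genes tested. A log2 change of at least 1 with a call was found downward in 9 members (3.05% of all genes) and upward in 2 (5.98% of all genes). Both shTex10 libraries lay below both shLuci libraries in 23 of the 34 (48.1% of all genes) and above them in 6 (28.3% of all genes). The balance of calls depended on scale: with named genes brought to an equal total in each library, 19 members were lower and 6 higher, while 63.2% of all calls were upward in place of 38.3%. With all rows, unnamed ones included, brought to an equal total, 5 members were lower and 2 higher and 73.5% of all calls were upward. The sizes of the changes hardly moved there: the enzyme median was -0.83 and that of the other HIF targets -0.45, as with the deposited values, while the adjusted p-values rose. The 7 members that kept their call there were Tpi1, Ldha, Aldoa, Slc16a3 and Egln3, which were lower, and Pfkfb4 and P4ha2, which were higher. Of these, Egln3 was under 1 FPKM in shTex10 and entered the test through its shLuci values.

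**Figure D1:**
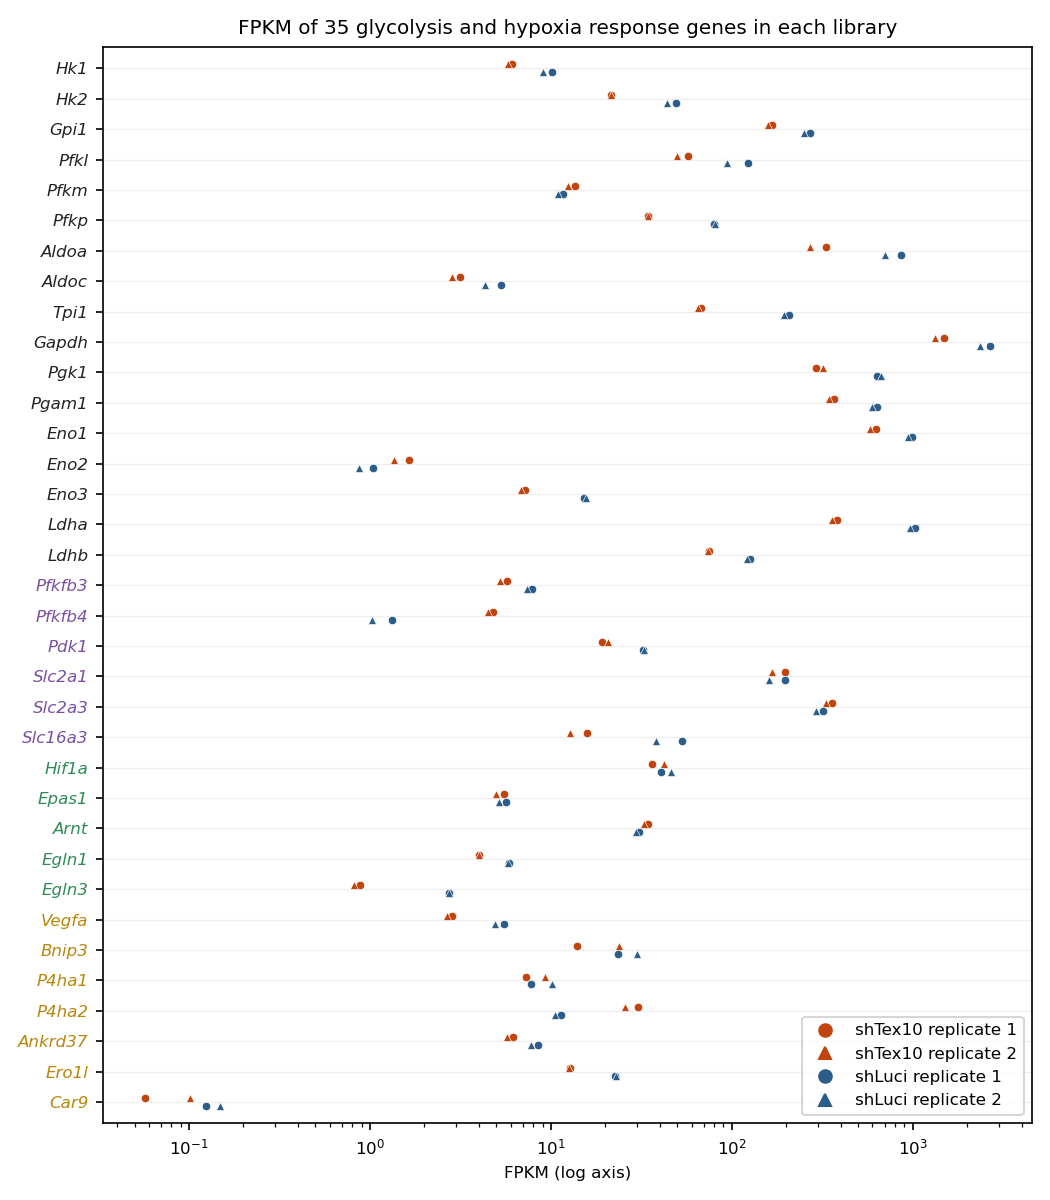
FPKM on a log axis for the 35 genes with a row, 1 symbol per library (circles replicate 1, triangles replicate 2, red shTex10, blue shLuci). Gene names are black for glycolytic enzymes, purple for regulators and transporters, green for HIF subunits and prolyl hydroxylases and gold for other HIF targets. Red lies left of blue for most enzymes, and right of blue for Pfkfb4 and P4ha2.

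At each step from hexokinase to lactate dehydrogenase at least 1 gene was called lower. Of 17 enzyme genes tested, 15 were called lower, 1 higher (Eno2) and 1 did not pass (Pfkm), with a median log2 change of -0.83. Summed over the 17 genes, the enzymes took 3951 and 3630 FPKM in the shTex10 libraries, against 7723 and 7046 FPKM in the shLuci libraries. That is 0.751% and 0.675% of the FPKM of all named genes in shTex10, against 1.26% and 1.11% in shLuci. All 10 enzyme genes with a mean of at least 100 FPKM in shLuci were called lower, and their shTex10 means stood between 32.9% and 62.9% of the shLuci means.

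In the upper part of the pathway, Hk2, the hexokinase that traps glucose in the cell and is induced by HIF, measured 21.6 and 21.5 FPKM in shTex10 and 49.5 and 43.9 FPKM in shLuci (log2 change -1.08, SE 0.10). Gpi1, which turns glucose 6-phosphate into fructose 6-phosphate, measured 167 and 159 FPKM in shTex10 and 269 and 250 FPKM in shLuci (log2 change -0.67, SE 0.09). Neither gene's groups overlapped. Pfkp, a phosphofructokinase gene of the committed step, measured 34.4 and 34.6 FPKM in shTex10 and 79.7 and 80.9 FPKM in shLuci (log2 change -1.19, SE 0.08). Aldoa, the main aldolase, which splits the hexose into triose phosphates, measured 334 and 272 FPKM in shTex10 and 857 and 702 FPKM in shLuci (log2 change -1.36, SE 0.15). Its replicates differed by more than those of Pfkp, and the groups still stood well apart.

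Tpi1, the triose phosphate isomerase gene whose promoter window held no core, had the largest fall among the enzymes. It measured 67.2 and 64.7 FPKM in the shTex10 libraries, against 207 and 194 FPKM in the shLuci libraries (32.9% of the shLuci mean, log2 change -1.59, SE 0.09, limma with Benjamini-Hochberg adjusted p = 0.000214). The deposited table lists Tpi1 and Spsb2 at the same coordinates (mm9 chromosome 6, 124758958 to 124764314), with Spsb2 at 6.83 and 5.04 FPKM in shTex10 and 2.74 and 2.44 FPKM in shLuci. Spsb2 was the lower of the pair in each library and was called higher (log2 change 0.94, SE 0.15). Use of strand is not stated, so reads of the pair may be mixed. Other members whose row overlaps another are Hk1, Pfkm, Pfkp, Slc2a3 and Car9. Pfkp is listed at the coordinates of Pitrm1, which was above it in both shTex10 libraries. Pitrm1 measured 61.5 and 57.7 FPKM in shTex10 and 47.1 and 71.0 FPKM in shLuci and did not pass the test.

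In the lower part, Gapdh, the most abundant enzyme transcript, measured 1492 and 1323 FPKM in shTex10 and 2669 and 2347 FPKM in shLuci (log2 change -0.83, SE 0.12). Pgk1, which makes ATP from the product of GAPDH, measured 293 and 319 FPKM in shTex10 and 635 and 667 FPKM in shLuci (log2 change -1.09, SE 0.09). Pgam1, the next enzyme's gene, measured 366 and 344 FPKM in shTex10 and 638 and 597 FPKM in shLuci (log2 change -0.80, SE 0.09). In all 3 genes each shTex10 library was below each shLuci library. Eno1, the main enolase, measured 629 and 579 FPKM in shTex10 and 993 and 941 FPKM in shLuci (log2 change -0.68, SE 0.09). It lost its call under quantile normalization and with an equal total of all rows. Gapdh, Pgk1 and Pgam1 also lost theirs with an equal total of all rows. Pkm, which carries the pyruvate kinase step and is counted among the other carbohydrate genes, measured 1118 and 951 FPKM in shTex10 and 1960 and 1612 FPKM in shLuci (log2 change -0.78, SE 0.14). Its splice forms PKM1 and PKM2 cannot be told apart in gene-level values. Several of these genes have processed pseudogenes, and how reads with several matches were treated is not given, so their absolute levels are uncertain.

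Ldha, which makes lactate and whose promoter window held 3 cores, measured 382 and 360 FPKM in the shTex10 libraries, against 1032 and 967 FPKM in the shLuci libraries. The shTex10 mean was 37.1% of the shLuci mean (limma log2 change -1.43, SE 0.09, adjusted p = 0.000313 after Benjamini-Hochberg). Slc16a3 (MCT4), the lactate exporter of glycolytic cells, measured 15.9 and 12.8 FPKM in shTex10 and 53.0 and 38.0 FPKM in shLuci (31.6% of the shLuci mean, log2 change -1.58, SE 0.18). Transcripts for making and for exporting lactate were thus both lower, by similar factors.

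**Figure D2:**
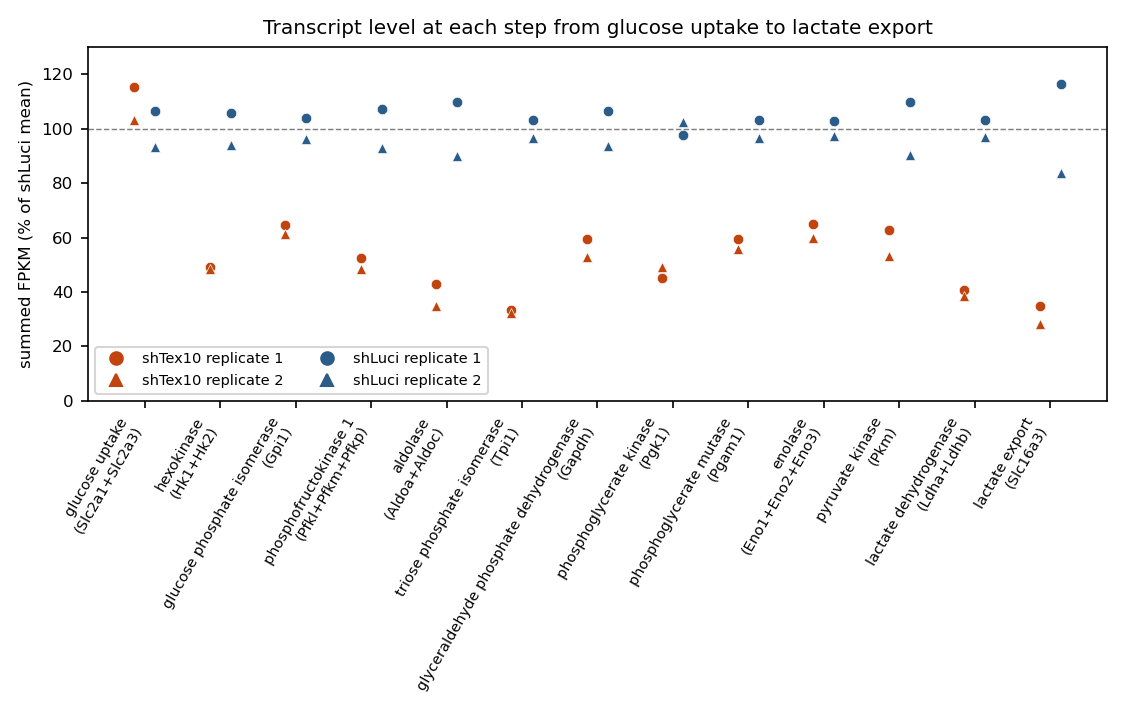
Summed FPKM of the listed genes at each step, from glucose uptake to lactate export, as a percentage of the mean of both shLuci libraries. Circles are replicate 1, triangles replicate 2, red shTex10 and blue shLuci. From hexokinase to lactate export the shTex10 libraries sit between 28.2% and 64.9%, while for glucose uptake they sit at 115% and 103%.

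The glucose transporters stood apart from the enzymes. Slc2a1 (GLUT1), a HIF target, measured 198 and 166 FPKM in the shTex10 libraries and 196 and 161 FPKM in the shLuci libraries. The groups overlapped and the replicates of a group differed more than the group means (log2 change 0.03, SE 0.14). Slc2a3 (GLUT3), the high-affinity transporter of early embryos and neurons, measured 361 and 332 FPKM in shTex10 and 319 and 291 FPKM in shLuci. Its shTex10 libraries were both above the shLuci libraries, but the difference did not pass the test as deposited (log2 change 0.18, SE 0.10, limma with Benjamini-Hochberg adjusted p = 0.169). It was called higher under quantile normalization and with an equal total of named genes.

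The regulators of glycolysis moved in different directions. Pfkfb3 and Pfkfb4 make fructose 2,6-bisphosphate, the activator of phosphofructokinase 1, and both are HIF targets. Pfkfb4 measured 4.78 and 4.50 FPKM in shTex10 and 1.32 and 1.02 FPKM in shLuci, or 396% of the shLuci mean (log2 change 1.38, SE 0.11, limma with Benjamini-Hochberg adjusted p = 0.000497). Pfkfb3 measured 5.71 and 5.25 FPKM in shTex10 and 7.84 and 7.43 FPKM in shLuci (log2 change -0.41, SE 0.09). The Pfkfb3 call was lost without shTex10 replicate 2, without shLuci replicate 1 and with an equal total of either named genes or all rows. Pdk1, a kinase that shuts pyruvate dehydrogenase and so keeps pyruvate out of the mitochondria, measured 19.2 and 20.7 FPKM in shTex10 and 32.5 and 32.6 FPKM in shLuci (log2 change -0.68, SE 0.09).

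Of the HIF machinery, the 3 subunit genes among the members did not pass the test, and both prolyl hydroxylase genes among the members were called lower. Outside the members, the prolyl hydroxylase gene Egln2 did not pass (log2 change -0.12, SE 0.20). The subunit gene Arnt2, also outside the members, was called lower (log2 change -0.33, SE 0.09). Hif1a measured 36.5 and 42.4 FPKM in shTex10 and 40.8 and 46.4 FPKM in shLuci (log2 change -0.14, SE 0.12). Epas1, the gene of HIF-2 alpha, measured 5.49 and 4.98 FPKM in shTex10 and 5.68 and 5.15 FPKM in shLuci (log2 change -0.04, SE 0.10). In both genes the groups overlapped, and the sign of the change turned under some scalings. Arnt, the shared partner, measured 34.3 and 32.8 FPKM in shTex10 and 30.6 and 29.4 FPKM in shLuci (log2 change 0.15, SE 0.09), with no overlap and no call as deposited. Arnt was called higher under these same alternatives as Slc2a3.

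Egln3 (PHD3), an oxygen sensor that HIF itself induces, measured 0.880 and 0.822 FPKM in shTex10 and 2.72 and 2.74 FPKM in shLuci, 31.2% of the shLuci mean (log2 change -1.01, SE 0.09). It entered the test through its shLuci values, being under 1 FPKM in shTex10. Egln1 (PHD2), the main oxygen sensor and also a HIF target, measured 4.02 and 4.01 FPKM in shTex10 and 5.84 and 5.83 FPKM in shLuci (log2 change -0.45, SE 0.09). Egln1 lost its call with an equal total of named genes, at a log2 change of -0.26, and with an equal total of all rows, at -0.45 as deposited. Egln3 kept its call under both.

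The other HIF targets were mixed. Of 6 tested, 3 were called lower, 1 higher and 2 did not pass, with a median log2 change of -0.45. The shares over all genes tested were 31.8% lower and 19.8% higher. Ero1l, an oxidase that serves disulfide formation in the endoplasmic reticulum, measured 12.7 and 12.7 FPKM in shTex10 and 22.7 and 23.0 FPKM in shLuci (log2 change -0.80, SE 0.08). Vegfa, the blood vessel growth factor, measured 2.83 and 2.68 FPKM in shTex10 and 5.50 and 4.90 FPKM in shLuci (log2 change -0.72, SE 0.10). Ankrd37, an ankyrin repeat gene, measured 6.20 and 5.69 FPKM in shTex10 and 8.45 and 7.73 FPKM in shLuci (log2 change -0.39, SE 0.10), and lost its call without shTex10 replicate 2, without shLuci replicate 1 and with an equal total of either kind.

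P4ha2, an alpha subunit gene of the enzyme that hydroxylates collagen, was the 1 gene of this list called higher. It measured 30.2 and 25.8 FPKM in the shTex10 libraries, against 11.4 and 10.6 FPKM in the shLuci libraries, or 254% of the shLuci mean (log2 change 1.27, SE 0.11, limma with Benjamini-Hochberg adjusted p = 0.000716). Its paralog P4ha1 measured 7.28 and 9.27 FPKM in shTex10 and 7.77 and 10.2 FPKM in shLuci, with overlapping groups (log2 change -0.10, SE 0.16). Bnip3, a gene of mitochondrial clearance, measured 14.0 and 23.7 FPKM in shTex10 and 23.7 and 30.1 FPKM in shLuci. Replicate 2 was the higher of the pair in both groups, and the change of -0.52 (SE 0.25) did not pass. Without shTex10 replicate 2 or without shLuci replicate 1, Bnip3 was called lower.

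**Figure D3:**
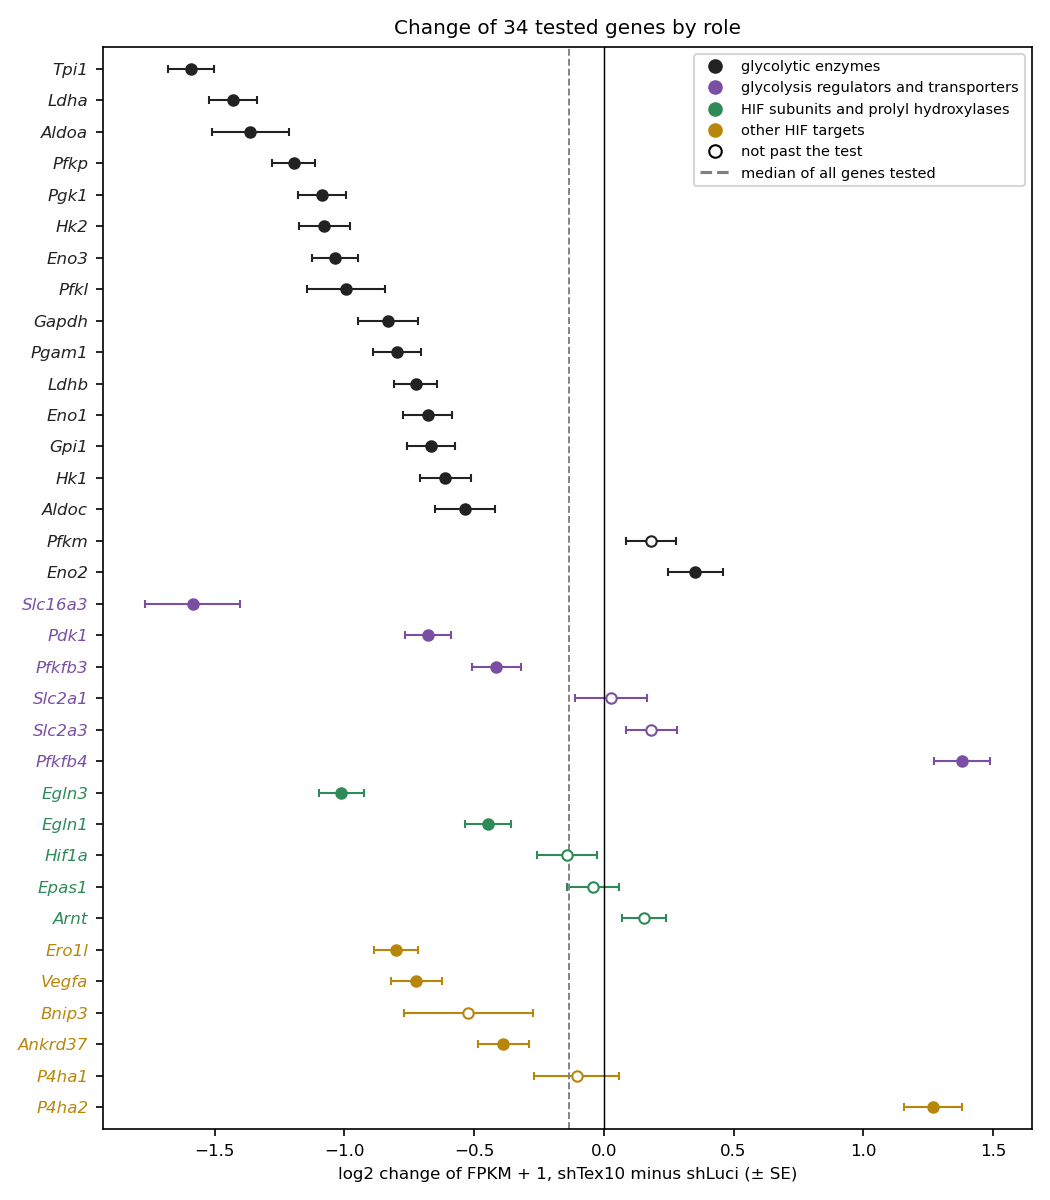
Log2 change (shTex10 minus shLuci, bars ± SE, n = 2 per group) of the 34 genes tested, by role and sorted within role. Open symbols did not pass the test, and the dashed line is the median of all genes tested at -0.14. Enzymes run between -1.59 and 0.35, and the other HIF targets between -0.80 and 1.27.

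Set beside 31.8% of all genes tested, 15 of 17 glycolytic enzymes and 3 of 6 other HIF targets were called lower. Their median log2 changes were -0.83 and -0.45. Less the all-gene median, these stand at -0.70 and -0.32. The ranges overlap, the other HIF targets are few, and no test of the difference was made. Pfkfb4, P4ha2, Slc2a1, P4ha1 and Bnip3 are HIF targets that were tested and not called lower. Tpi1, Ldha, Slc16a3 and Egln3 stood at about the same fraction of shLuci, between 31.2% and 37.1%. Egln3 was under 1 FPKM in shTex10 and entered the test through its shLuci values, so its fraction rests on low values.

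The shares of isoenzymes and paralogs differed between the groups in some families and overlapped in others. FPKM is per length, so levels can be compared within a family. Shares over the libraries were tested by an exact two-sided permutation test, which with 2 against 2 libraries cannot go below p = 0.333. Of 10 families, the shift was largest in phosphofructokinase 2. Pfkfb4 took 45.6% and 46.2% of the family's FPKM in shTex10, against 14.4% and 12.1% in shLuci (exact permutation p = 0.333), and the family sum was 115% of the shLuci mean. P4ha2 took 80.6% and 73.5% of the collagen prolyl hydroxylase FPKM in shTex10, against 59.6% and 50.9% in shLuci, with the family sum at 181% of the shLuci mean. In both families the gain of 1 member exceeded any loss of the other.

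Of the summed FPKM of Egln1 and Egln3, Egln1 took 82.1% and 83.0% in shTex10, against 68.2% and 68.0% in shLuci, with the larger log2 change in Egln3. Egln2, a HIF prolyl hydroxylase gene outside the members, was left out of this sum. It measured 28.5 and 21.5 FPKM in shTex10 and 32.1 and 22.7 FPKM in shLuci, above Egln1 and Egln3 in each library. These are thus not shares of all HIF prolyl hydroxylase transcripts. Pfkm, the muscle-type phosphofructokinase 1, took 12.9% and 12.8% of its family in shTex10, against 5.46% and 5.88% in shLuci. Its own level was 13.5 and 12.4 FPKM in shTex10 and 11.7 and 10.9 FPKM in shLuci (log2 change 0.18, SE 0.10), not past the test, while Pfkp and Pfkl fell. Pfkl, the liver type, measured 57.3 and 50.1 FPKM in shTex10 and 123 and 94.1 FPKM in shLuci (log2 change -0.99, SE 0.15). The Pfkm row is listed at the coordinates of Senp1, which had 10.4 and 9.58 FPKM in shTex10 and 13.3 and 12.0 FPKM in shLuci and was called lower (log2 change -0.31).

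Ldhb, whose enzyme favours pyruvate, took 16.5% and 17.0% of lactate dehydrogenase in shTex10, against 10.9% and 11.2% in shLuci. It too fell, at 75.1 and 73.9 FPKM in shTex10 and 126 and 122 FPKM in shLuci (log2 change -0.72, SE 0.08). Hk1, the hexokinase of most tissues, took 22.0% and 21.3% in shTex10, against 17.1% and 17.1% in shLuci, and fell as well, with 6.10 and 5.82 FPKM in shTex10 and 10.2 and 9.09 FPKM in shLuci (log2 change -0.61, SE 0.10). The main isoenzyme of both families thus gave up share while staying the main one.

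Minor isoenzymes of enolase and aldolase stayed minor. Eno2, the neuronal enolase, measured 1.64 and 1.36 FPKM in shTex10 and 1.04 and 0.873 FPKM in shLuci. Its call as higher (log2 change 0.35, SE 0.10) was lost without shTex10 replicate 1, without shLuci replicate 2, under quantile normalization and with an equal total of all rows. It entered the test through its shTex10 values, with a shLuci mean under 1 FPKM. Eno3, the muscle enolase, measured 7.20 and 6.85 FPKM in shTex10 and 15.3 and 15.7 FPKM in shLuci (log2 change -1.04, SE 0.09). Eno1 held 98.6% of the family in both shTex10 libraries and 98.4% and 98.3% in the shLuci libraries. Aldoc, the brain aldolase, measured 3.13 and 2.84 FPKM in shTex10 and 5.28 and 4.30 FPKM in shLuci (log2 change -0.53, SE 0.12). It made up 0.928% and 1.03% of the family in shTex10 and 0.612% and 0.609% in shLuci. The shares of Slc2a1 and Slc2a3 shifted by 2.47 percentage points and those of Hif1a and Epas1 by 0.687 points, with overlapping groups for Hif1a and Epas1 (exact permutation p = 0.667).

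**Figure D4:**
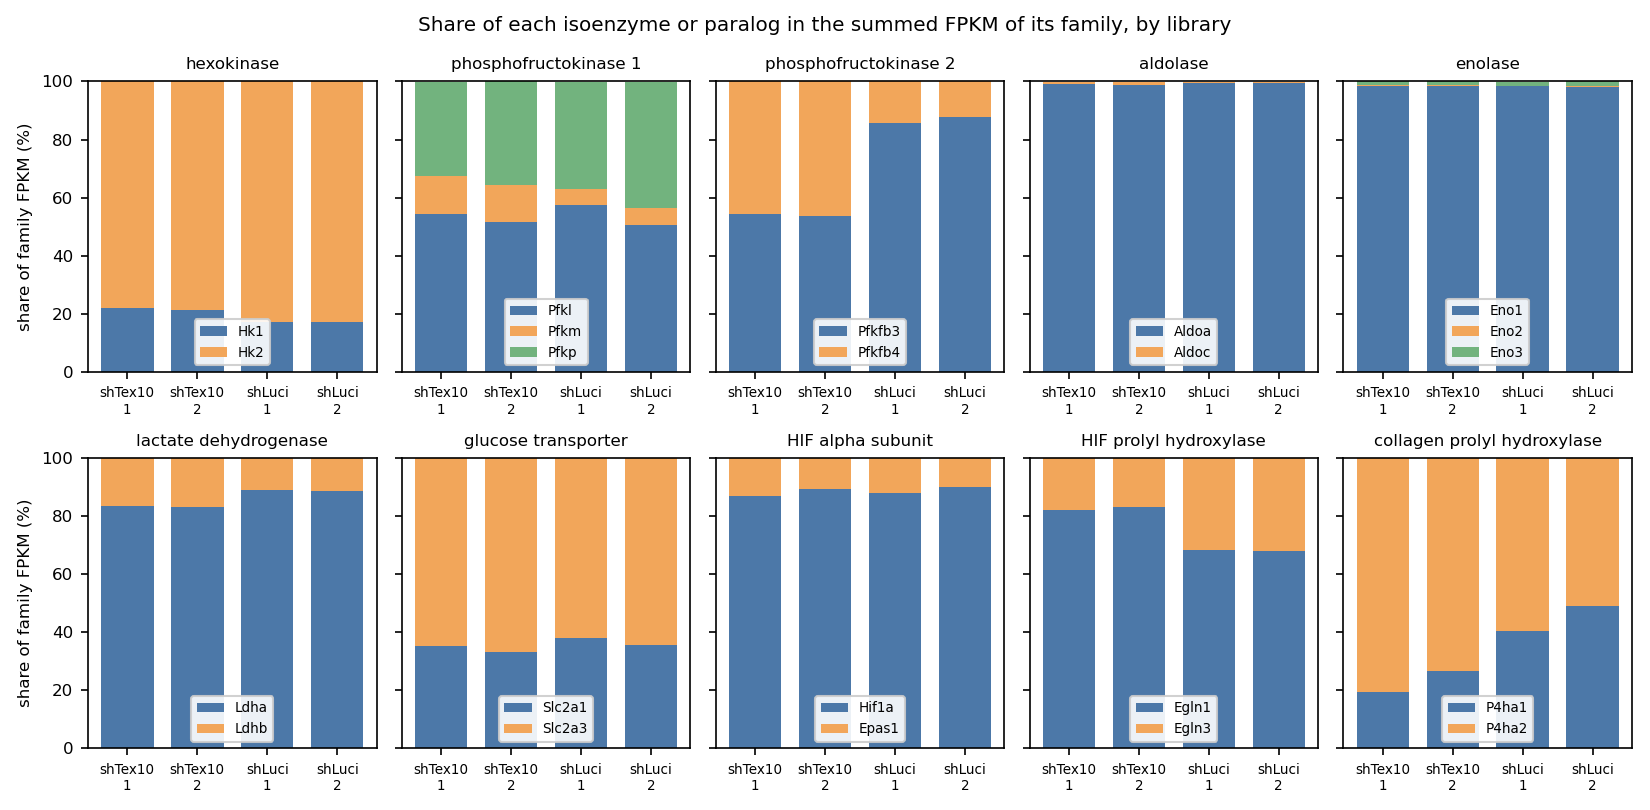
Share (%) of each gene in the FPKM summed over the members of its family, 1 stacked bar per library, with shTex10 replicates 1 and 2 left of shLuci replicates 1 and 2. Paralogs outside the members, such as Pfkfb1, Pfkfb2 and Egln2, are not in the bars. The boundary moves most for Pfkfb3 and Pfkfb4, by 32.6 percentage points between group means, for P4ha1 and P4ha2 (21.8) and for Egln1 and Egln3 (14.4).

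Other genes of carbohydrate metabolism were called in both directions. Of 52 listed, 36 were tested, 17 were called lower, 6 higher and 13 did not pass, with a median log2 change of -0.27. Over all genes tested, 31.8% were called lower and 19.8% higher. Slc16a1 (MCT1), which carries lactate across the membrane like Slc16a3, measured 16.6 and 19.2 FPKM in shTex10 and 53.2 and 57.7 FPKM in shLuci (log2 change -1.58, SE 0.11). Tkt, the transketolase of the pentose phosphate pathway, measured 58.4 and 48.3 FPKM in shTex10 and 168 and 142 FPKM in shLuci (log2 change -1.52, SE 0.13). Their shTex10 means stood at 32.3% and 34.5% of the shLuci means, beside 32.9% for Tpi1 and 37.1% for Ldha. Gpd2, of the glycerol phosphate shuttle, fell by 0.90 (SE 0.09) and Pgm2, a phosphoglucomutase, by 0.89 (SE 0.09) on the log2 scale.

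Among the genes of this list that rose were both fructose bisphosphatases. Fbp2 and Fbp1, whose enzymes undo the phosphofructokinase 1 step in gluconeogenesis, had log2 changes of 1.75 (SE 0.13) and 1.15 (SE 0.13). Fbp2 measured 11.2 and 10.9 FPKM in shTex10 and 2.98 and 2.23 FPKM in shLuci, and Fbp1 measured 3.58 and 2.80 FPKM in shTex10 and 0.756 and 1.01 FPKM in shLuci. Fbp1 entered the test through its shTex10 values, with a shLuci mean under 1 FPKM. Pfkfb2, another gene for fructose 2,6-bisphosphate, rose with Pfkfb4 (6.65 and 6.94 FPKM in shTex10, 3.48 and 3.40 FPKM in shLuci, log2 change 0.81, SE 0.09). Mpc1, a subunit of the mitochondrial pyruvate carrier, measured 32.4 and 30.0 FPKM in shTex10 and 21.4 and 22.6 FPKM in shLuci (log2 change 0.48, SE 0.09).

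Of 50 other genes of the HIF pathway, 41 were tested, 12 were called higher, 15 lower and 14 did not pass. Among all genes tested, 19.8% were called higher and 31.8% lower. The median log2 change was -0.14 in this list and -0.14 over all genes tested. Ddit4 (REDD1), an inhibitor of mTORC1 that p53 also induces, measured 234 and 206 FPKM in shTex10 and 44.9 and 36.4 FPKM in shLuci (log2 change 2.41, SE 0.13). Edn1 (endothelin 1) and Tek (the angiopoietin receptor) rose by log2 changes of 1.94 (SE 0.13) and 1.48 (SE 0.09). Among those that fell, Mxi1, which opposes MYC, measured 2.77 and 3.08 FPKM in shTex10 and 7.01 and 7.39 FPKM in shLuci (log2 change -1.06, SE 0.10). Plod1 (a lysyl hydroxylase of collagen), Higd1a (a mitochondrial protein) and P4hb fell by 0.96 (SE 0.12), 0.69 (SE 0.09) and 0.71 (SE 0.08) on the log2 scale. P4hb is the partner subunit of P4ha1 and P4ha2 in the collagen hydroxylase, and it measured 140 and 140 FPKM in shTex10 and 231 and 230 FPKM in shLuci, against the direction of P4ha2.

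Of the 3 members that lie close together on chromosome 6, 1 moved against the others. Eno2, Tpi1 and Gapdh fall within 406 kb on mm9, with 39.4 kb between the rows of Eno2 and Tpi1. Eno2 was called higher and Tpi1 and Gapdh lower. Eno2 lay near the filter, with a shLuci mean under 1 FPKM, and lost its call under some of the alternatives, as given above. Of 14 other tested rows in that stretch, 4 were called higher, 6 lower and 4 did not pass, beside 19.8% higher and 31.8% lower over all genes.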

How the data were processed

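Poly(A) RNA of 4 CCE libraries was made with the TruSeq kit and read as 100-base single ends, per the labels' protocols. Tools named in the submitters' processing notes are Cufflinks 2.1.1, TopHat2 2.0.10 and Bowtie2 2.1.0, with the build mm9. Their options, the annotation and any use of strand are not stated there. The authors deposited FPKM, 1 value per row and library. FPKM keeps no read count, so no counting intervals are given. The smallest values of unnamed rows of equal length put depth in the other libraries at 83.4% to 94.0% of shLuci replicate 1, a rough estimate that 4.99% to 11.2% of lengths share.

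Rows that share a name were summed. With R 4.3.3 and limma 3.58.1 (eBayes with trend, no replicate block), log2(FPKM + 1) was tested for genes averaging 1 FPKM or more, Benjamini-Hochberg adjusted over 11883 genes. Shares within families were tested with scipy 1.17.1. The fit was tested on simulated data. The members and lists were chosen with earlier results of these data known. The text names all members, Tex10, and per other list up to 4 called genes with the smallest p in each direction, of which 1 is not reported here; Pkm, genes sharing a locus and the reference genes were chosen after their values were seen. Promoters are from RefSeq (GRCm38.p6), matched by symbol or synonym for 34 of 36 members. Alternatives were other pseudocounts (0.1, 0.5), filters (none, 5), scalings and variance models, a replicate block, the highest row per name and leaving out each library.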

Additional observations from a re-analysis of the deposited data

How the results depend on the processing

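Tex10 kept its call under all 16 alternatives. The numbers of calls moved most with scale. An equal total of all rows gave 662 genes higher and 239 lower, and 5 members lower, with medians of -0.83 for the enzymes, -0.45 for the other HIF targets and -0.13 for all genes. An equal total of named genes gave 1901 genes lower, 6 members higher, and medians of -0.60 for the enzymes and -0.25 for the other HIF targets. The median of all genes was then 0.064 in place of -0.14. The enzyme median was -0.76 with median scaling, -0.65 with quantile normalization and -0.99 at a mean of at least 5 FPKM, a filter that left 1292 genes and 1 member higher. Leaving out each library gave enzyme medians from -0.93 to -0.75 and medians of the other HIF targets from -0.51 to -0.30. Signs turned in genes that were not called: Hif1a (0.069 under quantile normalization, 0.081 with the named-gene sum), Epas1 (0.017 with median scaling, 0.15 with the named-gene sum, and from -0.10 to 0.019 without single libraries), P4ha1 (0.10 with the named-gene sum, from -0.28 to 0.073 without single libraries) and Slc2a1 (from -0.11 to 0.17 without single libraries). Leaving out each library, a choice made after the data were seen for the shares, turned the share of Pfkl (from -4.36 to 2.39 points), Hif1a (from -1.97 to 0.59) and Epas1 (from -0.59 to 1.97). The cause of these moves was not tested.

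Replicate numbers do not mark a shared batch in the labels. Deviations of same-numbered libraries correlated at 0.331 across genes, with 2 pairs. With the replicate number as a block, 5709 genes were lower, and 6 members were higher and 25 lower, since Pfkm, Slc2a3 and Arnt were then called higher and Hif1a and Bnip3 lower. FPKM holds no counts, so how far depth limits the lowest genes, Car9, Eno2 and Egln3, is not known.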

Other observations

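Gapdh and Pgk1 often serve as reference transcripts for quantitative PCR, and both were called lower in shTex10. Of 8 other common reference genes, chosen after the data were seen, Actb measured 1243 and 1144 FPKM in shTex10 and 1159 and 969 FPKM in shLuci, and Hprt measured 114 and 140 FPKM in shTex10 and 112 and 129 FPKM in shLuci, with overlapping groups in both. Sdha, at 65.7% of the shLuci mean, and Rplp0, at 71.6%, were called lower, and Tbp, Ppia, B2m and Ywhaz did not pass the test. A level set against Gapdh, at 56.1% of its shLuci mean, would differ from one set against Actb, at 112%.

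Replicate 1 was above replicate 2 in both groups for 25 of the 35 members and below it in both groups for 7, which were Pfkp, Pgk1, Pdk1, Hif1a, Bnip3, P4ha1 and Car9. The same count was not made over all genes, where deviations of same-numbered libraries correlated at 0.331, so the order cannot be read as particular to the members.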
